A study of Homo sapiens with 4 samples.

Results

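The expression of 10 genes of the vascular endothelial growth factor (VEGF), neuropilin and thrombospondin families was examined in U87MG cells, an established human glioblastoma (GBM) line, with and without knockdown of *KDM2B*. The 10 genes were taken by symbol from a deposited RNA-seq table of 22578 genes. They comprise the ligands *VEGFA*, *VEGFB*, *VEGFC* and *PGF*, the receptors *FLT1* and *KDR*, the coreceptors *NRP1* and *NRP2*, and the secreted inhibitors of angiogenesis *THBS1* and *THBS2*. Cells carried a short hairpin RNA against *KDM2B*, which encodes a histone H3K36 demethylase (shKDM2B), or against firefly luciferase (shControl), with 2 libraries per group. All cells were at passage 8, received retroviral hairpins on day 1, were kept in 1 µg/ml puromycin from day 3 and were harvested on day 9. The knockdown and the control cells therefore share transduction and selection, and the sources used here do not say which hairpin against *KDM2B* went into which library. The libraries are called biological replicates without a statement of what separates them, so the p-values speak only to the spread among these 4 libraries, and that spread may be technical.

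VEGF ligands are secreted dimers that bind receptor tyrosine kinases on endothelial cells and drive the growth of new vessels, and GBM is a tumor known for abundant, leaky vessels and high VEGF-A. Neuropilins lack a kinase of their own, bind VEGF-A and class 3 semaphorins, and pass these signals on together with KDR or plexins. Thrombospondin-1 and -2 are matrix proteins that oppose this growth by binding CD36 and CD47 on endothelial cells and by sequestering VEGF. Here the tumor cells were measured in culture, without vessels.

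Counts summed to 33770421 and 33330886 in the shKDM2B libraries and to 31433165 and 30470803 in the shControl libraries. The targeted gene *KDM2B* had 520 and 465 counts in shKDM2B against 1257 and 1253 in shControl, a log2 fold change of -1.6 (SE, the standard error, 0.06, adjusted p = 3.33e-19 by the edgeR quasi-likelihood test). A gene was called when its Benjamini-Hochberg adjusted p over all 21783 genes tested was at most 0.05 and its fold change at least 1.5. Levels are given in CPM, the share of a library's counts multiplied to a common total, after scaling by TMM. TMM is a method that takes most genes as unchanged. The study's methods do not say whether a read in exons of 2 genes was counted for both. In bulk RNA, fewer cells of a type and less RNA per cell cannot be told apart. *VIM*, an intermediate filament gene of astroglial and mesenchymal cells, was abundant, with 88536 and 87853 counts in shKDM2B and 132879 and 130857 in shControl, whereas the astrocyte marker *GFAP* was low, with 168 and 172 counts in shKDM2B and 77 and 68 in shControl. Of 5 glial markers tested, these were the 2 called. Neither of 2 immune markers tested was called, *CD68* (7858 and 7891 counts in shKDM2B, 8402 and 8388 in shControl) and *CSF1R*. In each of these 2 lists, 1 further marker fell under the minimum mean count. The glial markers *SOX2*, *S100B* and *AQP4* and the immune markers *CD14*, *CD3E* and *MS4A1* were not analysed here.

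The KDM2B protein binds CpG dinucleotides in DNA through its CxxC domain. The sequences around the start sites of *THBS1* and *THBS2*, chosen because these genes rose, are shown with each CG in capitals. They run 5′ to 3′ from 250 bases before to 50 bases after the start, from RefSeq on GRCh38.p14. The *THBS1* window lies at chr15:39580829-39581128 on the forward strand and the *THBS2* window at chr6:169253797-169254096 on the reverse strand.
*THBS1*: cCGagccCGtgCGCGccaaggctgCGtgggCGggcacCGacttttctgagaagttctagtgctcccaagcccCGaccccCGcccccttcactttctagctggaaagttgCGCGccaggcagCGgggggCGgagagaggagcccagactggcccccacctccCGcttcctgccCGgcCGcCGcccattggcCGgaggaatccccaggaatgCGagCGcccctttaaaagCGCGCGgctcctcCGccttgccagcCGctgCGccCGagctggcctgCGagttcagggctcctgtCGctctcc
*THBS2*: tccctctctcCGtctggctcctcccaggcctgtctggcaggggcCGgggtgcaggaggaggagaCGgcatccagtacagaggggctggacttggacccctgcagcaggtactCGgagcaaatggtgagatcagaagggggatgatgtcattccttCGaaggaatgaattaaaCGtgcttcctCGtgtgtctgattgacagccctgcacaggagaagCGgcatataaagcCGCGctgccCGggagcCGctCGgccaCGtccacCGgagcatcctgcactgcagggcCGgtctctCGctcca
The *THBS1* window holds 29 CG and the *THBS2* window 17, against a median of 14 (quartiles 4 and 28) over 35114 promoter windows of the same length. Such windows were found for 8 of the 10 genes, all but *VEGFA* and *NRP1*, in 9 entries because *PGF* has 2, which overlap. Over these entries the number of CG was lowest in *THBS2* at 17 and highest in *VEGFB* at 42, so every entry held more than the median. Other motifs were searched on both strands. The GC box GGGCGG, which itself contains a CG, occurred in 8 of the 9 entries and in 45.0% of all windows. *THBS2* was the entry without it and the only entry with ACGTG, the core that hypoxia-inducible factors bind, which it held at 2 places against 21.4% of all windows with any. TATAAA was found in *FLT1* and *THBS2* (11.5% of all windows), and the AP-1 site TGACTCA in none of the 9 entries (4.95% of all windows). These matches describe letters in the windows and were not tested against the expression values. Neither binding of KDM2B to these windows nor DNA methylation in them was measured here.

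In shKDM2B cells, *THBS1* and *THBS2* were called higher and *VEGFA* and *NRP1* were called lower. Among all genes tested, 13.3% were called higher and 6.79% lower, against 2 of 10 each here. The other 6 genes passed the adjusted p without reaching 1.5-fold. In edgeR at the adjusted p alone, 5 of the 10 were higher (*FLT1*, *KDR*, *NRP2*, *THBS1* and *THBS2*) and 5 lower (the 4 ligands and *NRP1*), against 28.4% and 29.5% of all genes. DESeq2's Wald test passed 3 higher and 4 lower, without *FLT1*, *KDR* and *PGF*, against 19.6% and 23.3% of all genes. The shKDM2B and shControl libraries did not overlap for any of the 10 genes, which was also so for 77.6% of all genes tested.

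**Figure D1:**
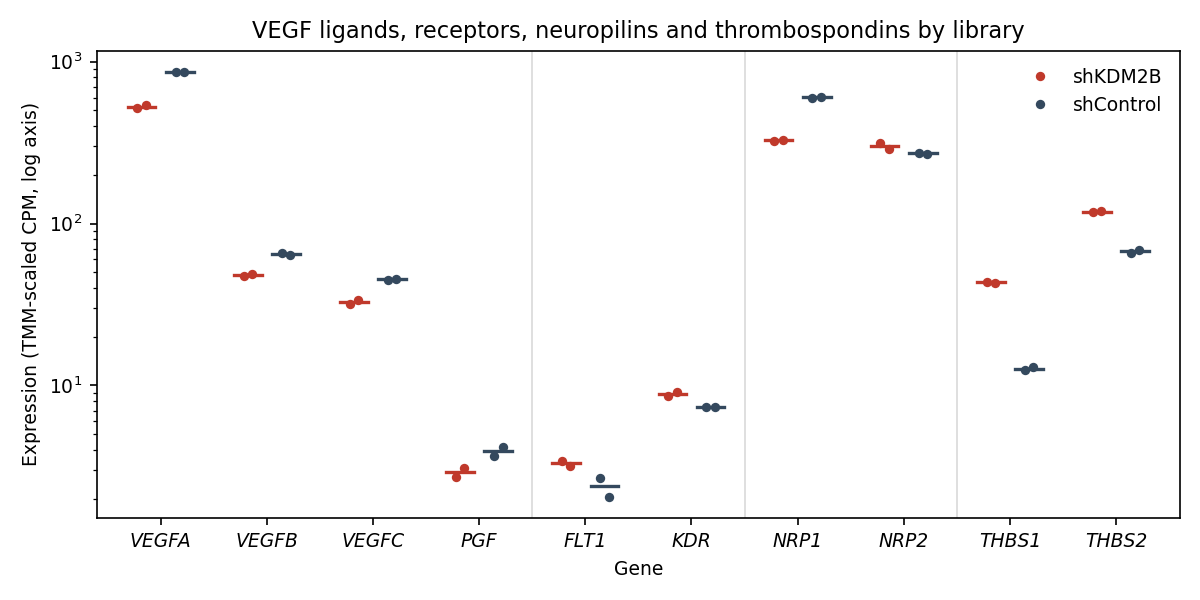
Expression of the 10 genes in each library, in TMM-scaled CPM on a log axis, with shKDM2B (red) left of shControl (blue). Points are libraries and bars are group means (n = 2 each), and grey lines part ligands, receptors, neuropilins and thrombospondins. *THBS1* shows the widest gap, at 43.7 and 43.0 CPM in shKDM2B against 12.4 and 13 CPM in shControl.

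*VEGFA* encodes VEGF-A, the main angiogenic ligand of GBM and a target of hypoxia signaling. It had 18198 and 18800 counts in shKDM2B libraries against 25743 and 25129 in shControl libraries. Both shKDM2B libraries lay below both shControl libraries. Scaled, this was 527 ± 16.5 CPM in shKDM2B and 860 ± 4.31 CPM in shControl (SD, n = 2 each), 1.63-fold lower. The log2 fold change of *VEGFA* was -0.71 (SE 0.03, 95% interval -0.76 to -0.65, adjusted p = 1.16e-18 by the edgeR quasi-likelihood test). When libraries were scaled by their totals alone it was -0.58, which falls just short of 1.5-fold, and when scaled on ribosomal protein genes it was -0.36. *VEGFA* (ENSG00000112715) maps to chromosome 6 of GRCh37, bases 43737921 to 43754224, forward strand. Its exons contain a 188-base antisense transcript, ENSG00000272114, which had 1299 and 1364 counts in shKDM2B and 1812 and 1827 in shControl. The TruSeq polyA kit named in the study's methods does not mark the strand, so reads of a gene and of its antisense partner cannot be told apart, and with these counts subtracted the log2 fold change of *VEGFA* was again -0.71. The counts sum over the splice forms of VEGF-A, which differ in how tightly they bind the matrix and were not resolved.

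The other 3 ligands had lower values in shKDM2B than in shControl, and none reached 1.5-fold. *VEGFB* encodes a ligand of FLT1 and had 1668 and 1707 counts in shKDM2B against 1966 and 1875 in shControl. Its scaled level was 48.1 ± 1.19 CPM in shKDM2B and 64.9 ± 0.742 CPM in shControl (SD, n = 2 each), a log2 fold change of -0.43 (95% interval -0.52 to -0.35, adjusted p = 2.23e-10 from edgeR). *VEGFC* encodes the main lymphangiogenic ligand, which binds FLT4 and, once processed, KDR. Its counts were 1132 and 1170 in shKDM2B and 1351 and 1323 in shControl. That corresponded to 32.8 ± 1.04 CPM in shKDM2B and 45.2 ± 0.328 CPM in shControl (SD, n = 2 each), a log2 fold change of -0.46 (95% interval -0.55 to -0.37, adjusted p = 3.45e-10 from edgeR). The raw counts of these genes already ran lower in the shKDM2B libraries, although those libraries were the deeper ones. *PGF*, the gene of placental growth factor, another ligand of FLT1, was scarce. It had 96 and 108 counts in shKDM2B against 110 and 122 in shControl, or 2.91 ± 0.266 CPM in shKDM2B and 3.93 ± 0.373 CPM in shControl (SD, n = 2 each). The interval of its log2 fold change of -0.43 was wide, from -0.72 to -0.14 (adjusted p = 0.0104 from edgeR), and the adjusted p was 0.136 in DESeq2's Wald test. *VEGFB* (ENSG00000173511) maps to chromosome 11 of GRCh37, bases 64002056 to 64006736, forward strand, *VEGFC* (ENSG00000150630) to chromosome 4, bases 177604689 to 177714076, reverse strand, and *PGF* (ENSG00000119630) to chromosome 14, bases 75408537 to 75422329, reverse strand. None of the 3 shares exonic bases with another annotated gene.

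Summed over the 4 ligands, VEGF family counts were 21094 and 21785 in shKDM2B and 29170 and 28449 in shControl. The sum was 611 ± 19 CPM in shKDM2B and 974 ± 4.26 CPM in shControl (SD, n = 2 each), a log2 ratio of -0.67. The sum is given as a description, with no test. *VEGFA* held 86.3% of ligand reads in shKDM2B 1 (95% Wilson interval 85.8 to 86.7%) and 86.3% in shKDM2B 2 (85.8 to 86.7%). In shControl it held 88.3% in library 1 (87.9 to 88.6%) and 88.3% in library 2 (88.0 to 88.7%). *VEGFB* took 7.91% and 7.84% of ligand reads in shKDM2B against 6.74% and 6.59% in shControl, and *VEGFC* took 5.37% and 5.37% in shKDM2B against 4.63% and 4.65% in shControl. *VEGFA* thus made up most ligand reads in all 4 libraries and a slightly smaller share in the shKDM2B libraries. These intervals cover counting error only.

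The receptor tyrosine kinase genes were expressed at low levels in all 4 libraries. *FLT1* encodes VEGFR-1, whose soluble form acts as a decoy that captures VEGF-A. It had 121 and 111 counts in shKDM2B against 81 and 60 in shControl, or 3.3 ± 0.174 CPM in shKDM2B and 2.38 ± 0.45 CPM in shControl (SD, n = 2 each). The shControl libraries lay further apart than the shKDM2B libraries. The log2 fold change of *FLT1* was 0.47 (SE 0.15, 95% interval 0.15 to 0.79, adjusted p = 0.0106 from edgeR), and DESeq2's Wald test gave an adjusted p of 0.156. Without shControl 1 it was 0.68 and called higher, and without shControl 2 it was 0.30 (adjusted p = 0.174 from edgeR). Membrane and soluble forms of FLT1 were not resolved.

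*KDR* encodes VEGFR-2, the main signaling receptor of VEGF-A. Its counts were 306 and 317 in shKDM2B and 220 and 213 in shControl. The shKDM2B libraries averaged 8.87 ± 0.296 CPM and the shControl libraries 7.32 ± 0.0058 CPM (SD, n = 2 each). The log2 fold change of *KDR* was 0.28 (SE 0.1, 95% interval 0.07 to 0.48, adjusted p = 0.0193 from edgeR and 0.155 from DESeq2's Wald test). Leaving out 1 library at a time gave 0.24 to 0.31, and the adjusted p passed in 2 of the 4 cases for *KDR* and likewise for *FLT1*. *FLT1* (ENSG00000102755) maps to chromosome 13 of GRCh37, bases 28874483 to 29069282, reverse strand, and *KDR* (ENSG00000128052) to chromosome 4, bases 55944648 to 55991762, reverse strand.

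Since both receptors mark endothelial cells, other markers of that type were read beside them. Of 11 endothelial markers, 5 were tested. *PECAM1* and *CDH5*, which define the type, were absent from the deposited counts, as were *CLDN5*, *ESAM*, *EGFL7* and *TIE1*. The paper describes dropping scarcely read genes, so markers near 0 may be missing from these counts. It is therefore uninformative that none of the 5 was at 0 in any library. The 5 summed to 2.55 and 3.41 CPM in shKDM2B and to 4.39 and 4.5 CPM in shControl. Of these, *VWF* was called higher (29 and 36 counts in shKDM2B, 10 and 12 in shControl). *TEK*, *ROBO4* and *ERG* were called lower on few reads, by log2 fold changes of -1.32, -1.75 and -0.91. In shKDM2B, *TEK* had 21 and 23 counts, *ROBO4* 6 and 15, and *ERG* 20 and 21. In shControl they had 57 and 36, 24 and 36, and 28 and 37 counts. *ERG* was not called by DESeq2's Wald test (adjusted p = 0.119) or on the ribosomal protein scale (-0.56). The part of these markers in the values of *FLT1* and *KDR* was not tested.

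Of the neuropilin genes, *NRP1* was called lower and *NRP2* was not called. *NRP1* encodes neuropilin-1, the coreceptor of VEGF-A and semaphorin 3A. It had 11464 and 11440 counts in shKDM2B against 17827 and 17706 in shControl. On the CPM scale this was 326 ± 2.26 in shKDM2B and 601 ± 10.4 in shControl (SD, n = 2 each), 1.84-fold lower. The log2 fold change of *NRP1* was -0.88 (SE 0.03, 95% interval -0.94 to -0.83, adjusted p = 8.9e-21 by the edgeR quasi-likelihood test), and it was -0.75 with library totals and -0.53 on ribosomal protein genes, the last short of 1.5-fold. *NRP1* (ENSG00000099250) maps to chromosome 10 of GRCh37, bases 33466420 to 33625190, reverse strand. It shares 4.9% of its exonic bases with the antisense transcript ENSG00000238258 (1041 and 1057 counts in shKDM2B, 1498 and 1487 in shControl), and its log2 fold change was -0.89 with those counts subtracted.

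*NRP2* encodes neuropilin-2, the coreceptor of VEGF-C and semaphorin 3F. It had 11049 and 10081 counts in shKDM2B and 8225 and 7848 in shControl, or 301 ± 17.0 CPM in shKDM2B and 272 ± 3.01 CPM in shControl (SD, n = 2 each). The shKDM2B libraries differed from each other by more than the shControl libraries did. The log2 fold change of *NRP2* was 0.15 (SE 0.03, 95% interval 0.08 to 0.21, adjusted p = 0.000297 from edgeR), and 0.08 without shKDM2B 1 (adjusted p = 0.0649). *NRP2* (ENSG00000118257) maps to chromosome 2 of GRCh37, bases 206546714 to 206662857, forward strand. An antisense transcript covers 1.1% of its exonic bases. There were 1.04 and 1.13 *NRP1* reads per *NRP2* read in shKDM2B, against 2.17 and 2.26 in shControl. That ratio was 2.04-fold lower in shKDM2B and does not depend on how the libraries were scaled.

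The thrombospondin genes were both called higher. *THBS1* encodes thrombospondin-1, a trimeric inhibitor of angiogenesis and an activator of latent TGF-β. It had 1542 and 1502 counts in shKDM2B against 373 and 378 in shControl. With 43.3 ± 0.442 CPM in shKDM2B and 12.7 ± 0.4 CPM in shControl (SD, n = 2 each), it was 3.41-fold higher. Of the 10 genes, *THBS1* had the largest change in either direction, with a log2 fold change of 1.77 (SE 0.06, 95% interval 1.66 to 1.89, adjusted p = 1.76e-20 by the edgeR quasi-likelihood test). Across the 12 alternative settings it ran from 1.74 to 2.12. *THBS1* (ENSG00000137801) maps to chromosome 15 of GRCh37, bases 39873280 to 39891667, forward strand. It shares 7.6% of its exonic bases with *FSIP1* and the antisense *THBS1-AS1*. *FSIP1* had 99 and 128 counts in shKDM2B and 59 and 78 in shControl, and the log2 fold change of *THBS1* was 1.95 with these subtracted. *THBS1-AS1* was not analysed here.

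*THBS2* encodes thrombospondin-2, a matrix inhibitor of angiogenesis that also binds and clears metalloproteinase-2. Its counts were 4183 and 4147 in shKDM2B and 1986 and 1991 in shControl. The level was 119 ± 0.276 CPM in shKDM2B and 67.3 ± 1.6 CPM in shControl (SD, n = 2 each), 1.76-fold higher. The log2 fold change of *THBS2* was 0.82 (SE 0.04, 95% interval 0.74 to 0.89, adjusted p = 5.9e-17 by the edgeR quasi-likelihood test). *THBS2* (ENSG00000186340) maps to chromosome 6 of GRCh37, bases 169615875 to 169654145, reverse strand. It shares 31.2% of its exonic bases with the antisense *THBS2-AS1*, which had 3360 and 3358 counts in shKDM2B and 1658 and 1636 in shControl. These reads cannot be assigned to a strand, and with all of them taken from *THBS2* its log2 fold change was 0.99.

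**Figure D2:**
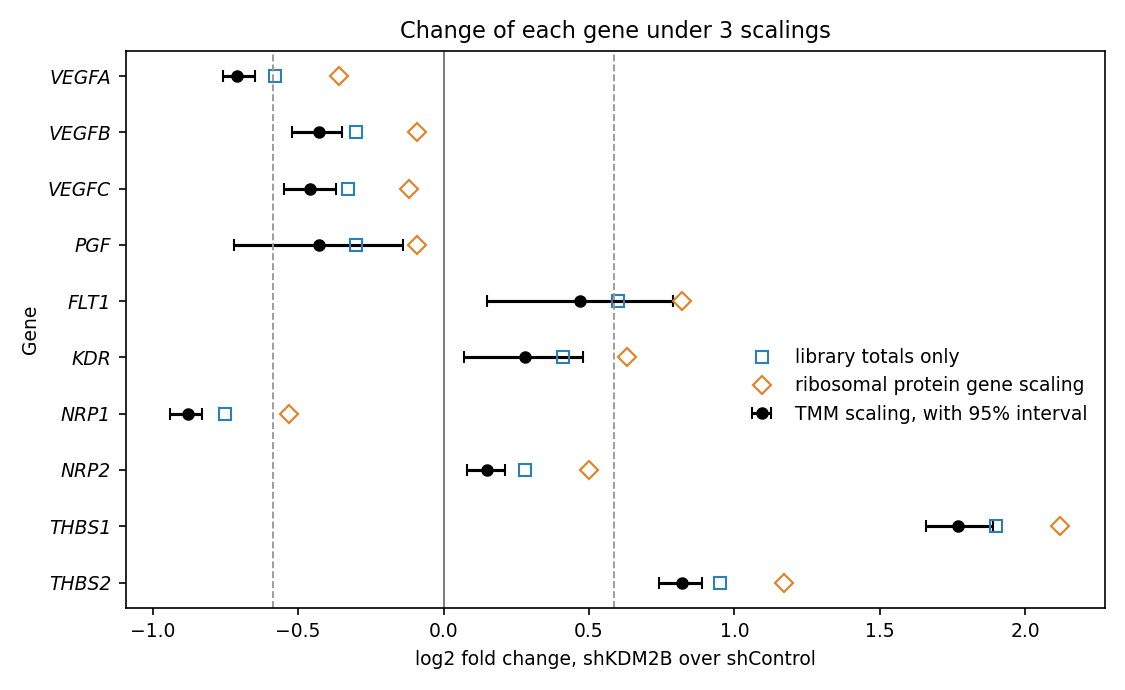
Log2 fold change of shKDM2B over shControl for each gene, with the 95% interval under TMM scaling (black) and the values with library totals alone (blue squares) and with ribosomal protein genes as the scale (orange diamonds). Dashed lines mark 1.5-fold. Signs stay the same under all 3 scalings, and *VEGFA* moves inside the dashed line under both alternatives, at -0.58 and -0.36.

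Because scaling sets the size of every fold change, the 77 cytosolic ribosomal protein genes were tried as the scale. Under TMM their median log2 fold change was -0.35, and using them moved the median of all genes tested from 0.01 to 0.36. On that scale 4 of the 10 genes were called higher, *FLT1* (0.82), *KDR* (0.63), *THBS1* (2.12) and *THBS2* (1.17), and 0 were called lower by edgeR (5 higher and 4 lower at an unadjusted p under 0.05). Of all genes tested, 28.6% were called higher and 2.15% lower on that scale. At the adjusted p alone 15195 of the 21783 genes passed in either direction, so at least as many passed an unadjusted p of 0.05. *VEGFA* and *NRP1* kept their adjusted p (5.72e-12 and 1.94e-15) but not 1.5-fold. *VEGFB* was at -0.09 (adjusted p = 0.0672) and *PGF* at -0.09 (adjusted p = 0.598). The split of all called genes moved as well, with 66.1% of them higher under TMM and 93% under ribosomal protein scaling. All 10 genes kept their sign in every one of the 12 alternative settings.

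Ratios of reads within a library are free of scaling, and they were chosen after the values had been seen. There were 11.8 and 12.5 *VEGFA* reads per *THBS1* read in shKDM2B, against 69.0 and 66.5 in shControl, 5.57-fold lower in shKDM2B. *THBS1* reads per *THBS2* read were 0.369 and 0.362 in shKDM2B and 0.188 and 0.19 in shControl, 1.94-fold higher in shKDM2B, with the reads shared with *THBS2-AS1* counted in. Ratios within the ligands moved less. *VEGFA* reads per *VEGFB* read were 10.9 and 11 in shKDM2B and 13.1 and 13.4 in shControl, and *VEGFA* reads per *VEGFC* read 16.1 and 16.1 in shKDM2B and 19.1 and 19 in shControl. The ratio of *KDR* to *FLT1* reads overlapped between groups, at 2.53 and 2.86 in shKDM2B and 2.72 and 3.55 in shControl.

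**Figure D3:**
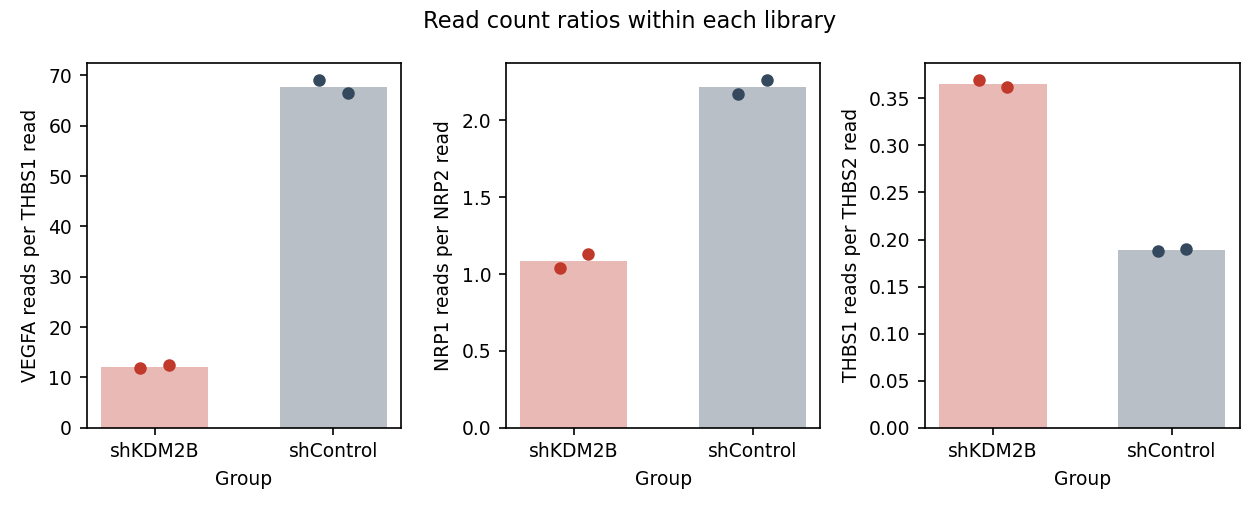
Read count ratios within each library, for *VEGFA* per *THBS1*, *NRP1* per *NRP2* and *THBS1* per *THBS2*, with shKDM2B left of shControl. Points are libraries and bars are means (n = 2 each), and the axes start at 0. The first ratio is 12.2 on average in shKDM2B and 67.7 in shControl.

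Levels of different genes were compared per kilobase of exon. In shKDM2B the order from the top was *VEGFA* (36.5 CPM per kb), *NRP1* (28.3), *VEGFB* (24.4), *NRP2* (21.6), *THBS2* (16.5), *VEGFC* (12.5), *THBS1* (4.73), *KDR* (1.4), *PGF* (0.501) and *FLT1* (0.263). In shControl it was *VEGFA* (59.6 CPM per kb), *NRP1* (52.1), *VEGFB* (33.0), *NRP2* (19.6), *VEGFC* (17.3), *THBS2* (9.34), *THBS1* (1.39), *KDR* (1.15), *PGF* (0.676) and *FLT1* (0.189). *THBS2* stood above *VEGFC* in shKDM2B and below it in shControl, counting all reads given to *THBS2*. With all *THBS2-AS1* counts subtracted and the full exon length kept, *THBS2* was at 3.19 CPM per kb in shKDM2B and 1.61 in shControl. These values lie below *VEGFC* in both groups. They are a lower limit, because only 39.0% of the exonic bases of *THBS2-AS1* lie in *THBS2*. No neighbors in either order had overlapping libraries. The order also rests on the lengths used. The union of all annotated exons of *VEGFA* is 14431 bases and its canonical transcript 3609 bases. With canonical lengths *NRP2* passed *VEGFB* and *PGF* passed *KDR* in both groups, although their shKDM2B libraries met at 1.56 CPM per kb, and *PGF* also passed *THBS1* in shControl. The receptors stayed near or at the bottom with either length.

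**Figure D4:**
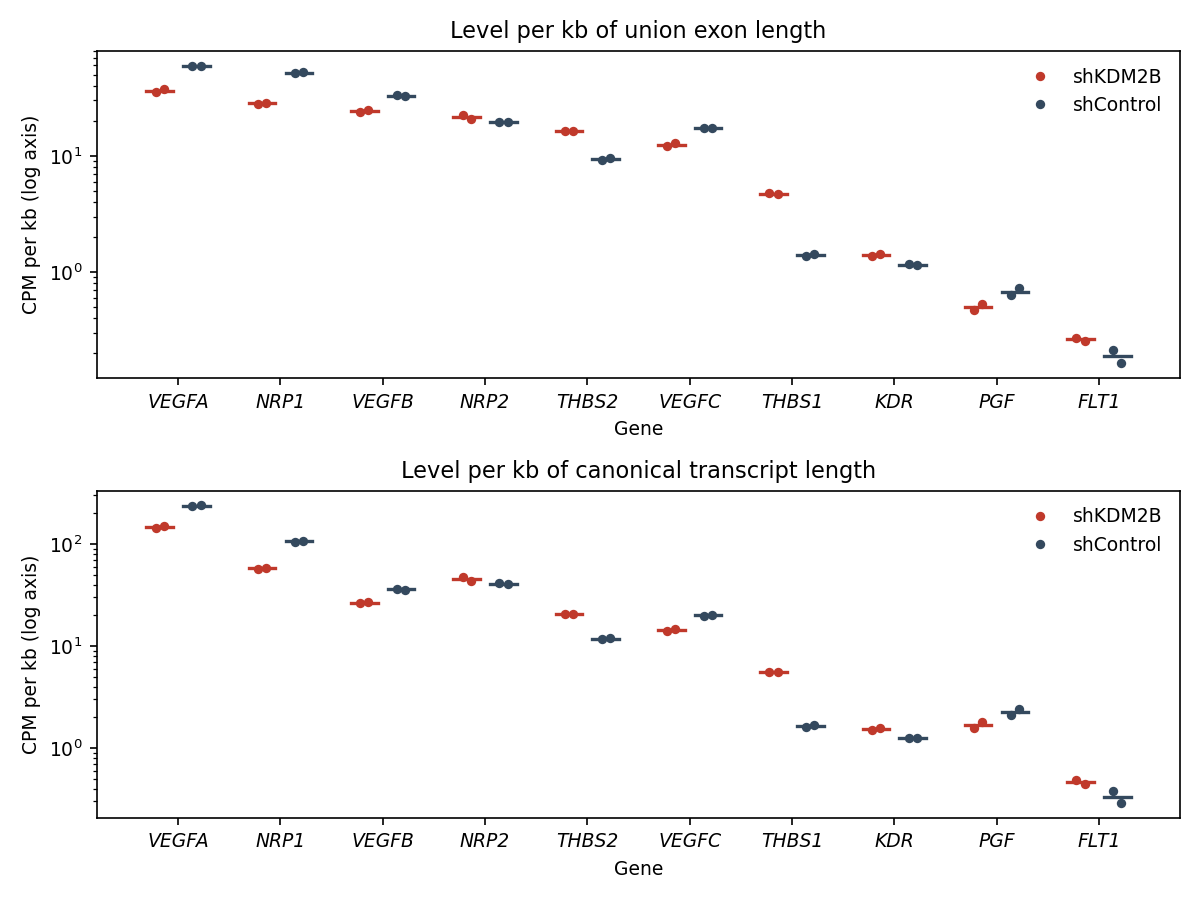
Level of each gene per kilobase of union exon length (top) and of canonical transcript length (bottom), in CPM per kb on log axes, with shKDM2B (red) left of shControl (blue). Points are libraries and bars are means (n = 2 each). *VEGFA* stands first in both panels, at 36.5 CPM per kb in shKDM2B and 59.6 CPM per kb in shControl in the top one.

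By distance between centred log2 CPM over the 4 libraries, the genes with the pattern most like that of *THBS1* among 14156 genes were *LINC01050* (distance 0.0264), *SPP1* (0.0466) and *TDO2* (0.0545). *SPP1*, which encodes the matrix glycoprotein osteopontin, was at 517 and 495 CPM in shKDM2B and at 149 and 152 CPM in shControl. With 4 libraries in 2 groups, this likeness is mostly that of the fold change, and 1.75 was the log2 fold change of *SPP1*.

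Genes that act beside these 10 were read from lists of ligands, receptors, targets and inhibitors, of which the 4 genes of smallest adjusted p in each list are named, and any other gene named was chosen after its value was seen. The share to set beside every list is that of all genes tested, 13.3% called higher and 6.79% lower under TMM. On the ribosomal protein scale it is 28.6% and 2.15%, and at the edgeR adjusted p alone under TMM 28.4% and 29.5%. In the VEGF-C and VEGF-D axis, 1 of 7 genes was called higher and 0 lower by edgeR and by DESeq2, with a median log2 fold change of 0.44 against 0.01 over all genes. With library totals 3 of the 7 were called higher (median 0.57, against 0.145 over all genes). On the ribosomal protein scale 5 were (median 0.79, against 0.36). *ADAMTS3*, which encodes the protease that activates VEGF-C, had 456 and 435 counts in shKDM2B against 230 and 206 in shControl (log2 fold change 0.78, adjusted p = 4.2e-08 from edgeR). *CCBE1*, the cofactor of that step, was at 0.44, and the convertase genes *FURIN* and *PCSK7* were at 0.55 and 0.28, short of 1.5-fold. Of the 7, 5 were higher and 0 lower at the adjusted p, against 28.4% and 29.5% of all genes. At an unadjusted p under 0.05 there were 6 and 0. The ligand gene *VEGFC* itself was at -0.46.

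Of 22 genes of VEGF receptor signaling, 3 were called higher and 2 lower (median log2 fold change -0.11, and 0.24 on ribosomal protein genes as the scale). *GIPC1*, which encodes the adaptor that binds the tail of neuropilin-1, had 1220 and 1167 counts in shKDM2B against 3219 and 3196 in shControl (log2 fold change -1.67, adjusted p = 5.17e-23 from edgeR). *PTPRJ*, the gene of a phosphatase that acts on KDR, had 2173 and 2189 counts in shKDM2B against 582 and 572 in shControl (1.67, adjusted p = 6.43e-22). The small GTPase gene *CDC42* was called lower at -1.03, and the focal adhesion gene *PXN* was at -0.52. The other called genes were *PTPRB*, which encodes the endothelial phosphatase VE-PTP (1.22), and *DAB2IP*, which encodes a GTPase-activating protein that binds KDR (0.94).

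Among 10 class 3 semaphorin and plexin genes, whose products share the neuropilins with VEGF, 4 were called higher and 1 lower (median 0.30), and 5 and 0 by edgeR on the ribosomal protein scale (median 0.64). *PLXND1*, the gene of the semaphorin 3E receptor, had 1181 and 1227 counts in shKDM2B against 254 and 271 in shControl (log2 fold change 1.95, adjusted p = 2.92e-19 from edgeR). *SEMA3A*, which encodes a neuropilin-1 ligand, had 485 and 496 counts in shKDM2B against 277 and 243 in shControl (0.67). *SEMA3B* (0.95) and *SEMA3D* (1.35) were also called higher. *PLXNA4* was called lower at -0.92, and *PLXNA2* was at 0.46. *SEMA3F* and *SEMA3G* were not analysed here.

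Of 13 genes of other thrombospondins and of thrombospondin receptors, 3 were called higher and 2 lower (median 0.19), and 6 and 1 on the ribosomal protein scale (median 0.54). The β1 integrin gene *ITGB1* had 25844 and 25345 counts in shKDM2B against 43593 and 41970 in shControl (log2 fold change -0.99, adjusted p = 6.3e-23 from edgeR). *CD47*, which encodes the receptor of the thrombospondin-1 C-terminus, had 2719 and 2598 counts in shKDM2B against 3832 and 3711 in shControl (-0.75). *ITGAV*, the αV integrin gene, was called higher at 0.64, as were *ITGA4* (1.85) and *THBS3* (0.61). *ITGA3* was at -0.55. The other main receptor gene, *CD36*, had 30 and 27 counts in shKDM2B and 15 and 27 in shControl, and *THBS4* was at -0.13 (adjusted p = 0.446 from edgeR).

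Of 19 other angiogenic factors and receptors tested, 6 were called higher and 4 lower (median -0.23), and 8 and 3 on the ribosomal protein scale (median 0.12). *CXCL8*, which encodes the angiogenic chemokine interleukin-8, had 24584 and 23519 counts in shKDM2B against 41621 and 38217 in shControl (log2 fold change -0.98, adjusted p = 1.39e-21 from edgeR). *HGF*, the gene of hepatocyte growth factor, was called lower at -0.96, whereas the matricellular genes *CCN2* (1.22) and *CCN1* (0.96) were called higher. Of 13 other inhibitors of angiogenesis, 4 were called higher and 4 lower (median 0.09), against 13.3% and 6.79% of all genes. On the ribosomal protein scale 4 and 1 were called (median 0.44), against 28.6% and 2.15% of all genes. *SPARC*, which encodes a matrix protein that binds VEGF, had 57157 and 58763 counts in shKDM2B against 17065 and 16536 in shControl (1.54, adjusted p = 1.93e-26). *COL15A1*, the source of restin, was called higher at 1.20. *TIMP2* (-0.71) and *ADAMTS1* (-0.80), which encode a metalloproteinase inhibitor and a metalloproteinase, were called lower. The other inhibitors of the list thus stood on both sides.

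Hypoxia-inducible factors (HIFs) activate *VEGFA*. Of 11 HIF subunit and regulator genes, 0 were called higher by edgeR or DESeq2 and 1 lower, *CITED2* (-0.60), which encodes an inhibitor of HIF activity. *HIF1A* had 15973 and 15426 counts in shKDM2B and 16011 and 15241 in shControl (log2 fold change -0.24). *EPAS1*, the HIF-2α gene, was at 0.27 and *ARNT2* at 0.28. Of the 11 genes, 4 passed the adjusted p higher and 3 lower, against 28.4% and 29.5% of all genes. At an unadjusted p under 0.05 there were 4 and 5. The median of the list was -0.09. With library totals edgeR called 0 in either direction, *CITED2* being at -0.47 (median 0.04), and on the ribosomal protein scale 3 were called higher and 0 lower (median 0.26). Among 20 HIF target genes other than *VEGFA*, 1 was called higher and 4 lower, and 4 and 14 passed the adjusted p higher and lower, with a median log2 fold change of -0.41. *NDRG1*, a hypoxia-induced gene, had 7396 and 8061 counts in shKDM2B against 15128 and 15081 in shControl (-1.21, adjusted p = 1.26e-21 from edgeR). The glycolytic gene *LDHA* was called lower at -0.88, and *ENO1* (-0.49) and *PGK1* (-0.52) were lower without reaching 1.5-fold. *BNIP3* (-0.71) and *ANKRD37* (-0.59) were also called lower and *PFKFB3* (0.61) higher. On ribosomal protein genes as the scale, 3 of the 20 HIF targets were called higher and 1 lower, with a median of -0.06.

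**Figure D5:**
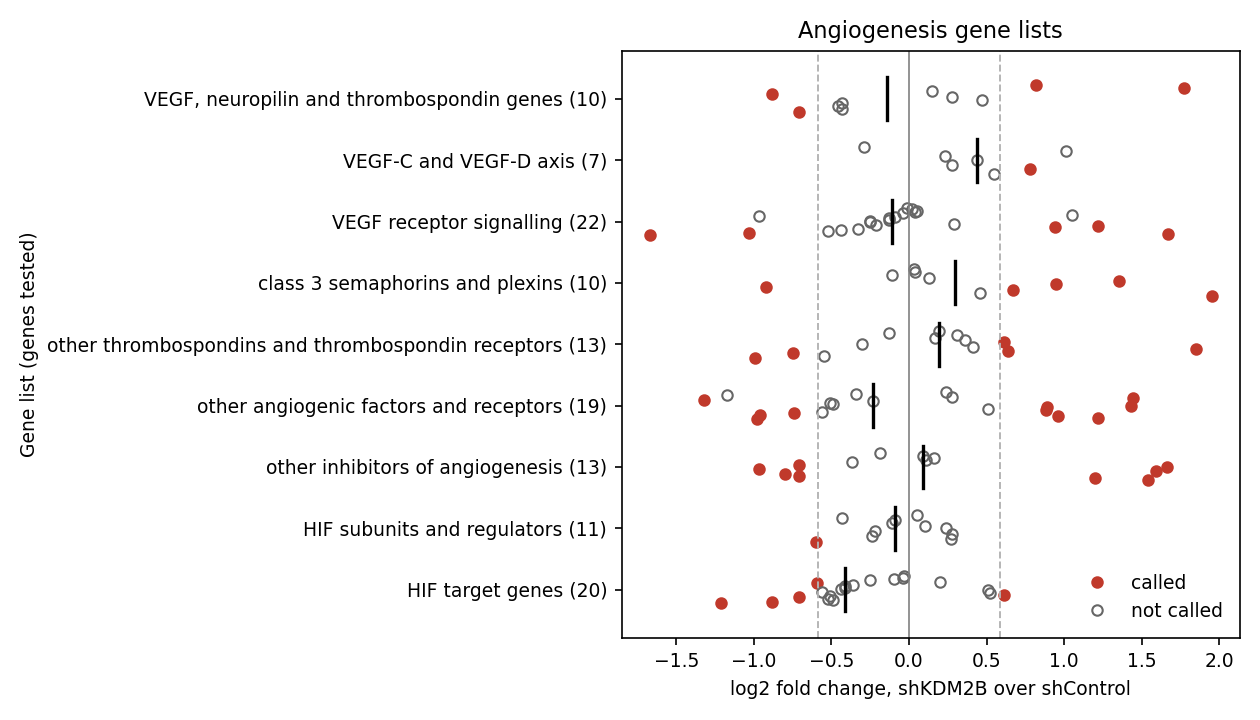
Log2 fold change of shKDM2B over shControl for each tested gene, by list, with the number tested in parentheses. Filled red points were called, open points were not, short bars are medians and dashed lines mark 1.5-fold. HIF targets lie mostly left of 0 (median -0.41), and the VEGF-C and VEGF-D axis mostly right (median 0.44).

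Markers of mural cells and fibroblasts, which make much thrombospondin and collagen, were read beside *THBS1* and *THBS2* in these U87MG cultures. Of 7 such markers tested, 4 were called higher and 0 lower by edgeR and by DESeq2 (4 and 1 at an unadjusted p under 0.05), with a median log2 fold change of 0.62. The 7 summed to 2030 and 2100 CPM in shKDM2B and to 819 and 843 CPM in shControl. *LUM*, which encodes the matrix proteoglycan lumican, had 2327 and 2452 counts in shKDM2B against 226 and 213 in shControl (3.2). *COL1A1* and *COL1A2*, the genes of type I collagen, were each at 1.47 and *PDGFRB* at 0.62. The contractile and pericyte markers *ACTA2*, *RGS5* and *CSPG4* were not called (-0.16, -0.20 and -0.11). None of the 7 tested was at 0 in any library, but *DES*, another marker of the list, was absent from the deposited counts. Scarcely read genes may be missing from those counts, so the lack of 0 values is uninformative. The part of these markers in the results on *THBS1* and *THBS2* was not tested.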

How the data were processed

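RNA-seq of U87MG cells (2 shKDM2B and 2 shControl libraries, grouped by label) was analysed from the deposited table. The authors, per the study's methods and processing notes, used CASAVA 1.8.2 for polyA-selected 50 bp reads, TopHat2 2.0.11 with Bowtie for alignment to hg19, SAMtools 0.1.19.0, and GenomicFeatures with Ensembl gene models for counting. The deposited raw counts per gene combine the 3 lanes of a library. The authors' normalized values, a signal equal to the count over a DESeq size factor, and their group means, fold changes and p-values were not used. The Ensembl release and strand setting of the counting are not stated in those sources, and the TruSeq kit used does not mark the strand.

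Raw counts of the 21783 genes with a mean of at least 10 in either group entered edgeR 4.0.16 (quasi-likelihood test, TMM scaling, no covariates, R 4.3.3). Calls needed an adjusted p (Benjamini-Hochberg) of at most 0.05 and 1.5-fold. The code was tested on simulated data. Gene coordinates, exon lengths and overlaps came from GENCODE 44 on GRCh37, and promoter windows from RefSeq. The rule for named genes took the 10 family genes, *KDM2B*, up to 4 genes of smallest adjusted p per list, and the 3 genes of pattern nearest to the called family gene of largest change. List genes named beyond these 4 (*SEMA3B*, *SEMA3D*, *PTPRB*, *DAB2IP*, *ITGA4*, *THBS3*, *THBS4*, *CD36*, *BNIP3*, *ANKRD37*, *PFKFB3* and the markers *CSPG4*, *ACTA2* and *RGS5*) were chosen after their values were seen. The genes and lists were chosen with earlier results of these data known. Alternatives changed the scaling, the low-count filter, the tool (DESeq2 1.42.0), the thresholds, the replicate block and the library left out. Subtraction of the counts of overlapping genes and canonical transcript lengths were added after seeing the data. Within a group, libraries differed beyond sampling noise, with 9.34% of genes in shKDM2B and 11.7% in shControl at a chi-square p under 0.05. Depth was 30470803 to 33770421 counts per library.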

Additional observations from a re-analysis of the deposited data

How the results depend on the processing

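Of 120 values of the log2 fold change of the 10 genes under the alternatives, 0 changed sign and 113 stayed on the same side of the thresholds. Of the 10 genes, 2 were called higher and 2 lower by edgeR. With ribosomal protein genes as the scale these counts were 4 higher and 0 lower, and with library totals 3 higher and 1 lower. Without a fold threshold they were 5 and 5, against 28.4% and 29.5% of all genes. At 2-fold 1 gene was called higher (*THBS1*) and 0 lower, and the share of all genes at 2-fold was not computed. The summed VEGF ligands had a log2 ratio of -0.67, and -0.54 with library totals. The sum was not computed on the ribosomal protein scale, where *VEGFA*, which makes up most of it, was at -0.36. Leaving out 1 library gave log2 fold changes of 1.74 to 1.81 for *THBS1* and 0.80 to 0.85 for *THBS2*. They were -0.74 to -0.68 for *VEGFA*, -0.89 to -0.86 for *NRP1* and 0.30 to 0.68 for *FLT1*. In these fits the lone library of a group is assumed to vary like the other group. Among all genes, DESeq2's Wald test called 2162 higher and 1275 lower, against 2887 and 1478 by edgeR, and library totals gave 3833 and 938 (80.3% higher). Ribosomal protein scaling gave 6235 and 468. Libraries of the same number deviated from their group means with a correlation of 0.164 over 16708 genes, and they share only a number. With the replicate number as a block, 2 genes were called higher and 2 lower, and 2927 and 1482 among all genes. Subtracting the counts of overlapping genes, tried after seeing the data, left 2 and 2. Levels per kb moved with the length used for all 10 genes. With overlapping counts subtracted, *THBS2* moved to 3.19 in shKDM2B and 1.61 in shControl, which is a lower limit. *PGF* and *FLT1* had 60 to 122 counts per library and *KDR* 213 to 317, the fewest of the 10 genes.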
